A study of Mus musculus with 16 samples.

Results

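Regulatory T cells (Treg) from 4 lines of Foxp3 reporter mice were compared to ask whether replacing one reporter allele with another had the same effect on the NOD background as on the C57BL/6 (B6) background. The values come from the 8 Treg arrays of a set of 16, with 2 arrays for each of the groups fusion NOD, ires NOD, fusion B6 and ires B6. The quantity of interest was the fusion minus ires difference in NOD Treg minus the fusion minus ires difference in B6 Treg, on the log2 scale and across all tested genes. It is called the contrast here. A positive contrast means that the fusion minus ires difference was higher in NOD than in B6.

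All mice were males 6 weeks old, and every line, including the ires lines against which the fusion lines were set, carried GFP in the Foxp3 locus. In the fusion lines (labelled Foxp3-GFP or Foxp3-Fusion-GFP) GFP is part of the Foxp3 protein. In the ires lines (Foxp3-ires-GFP) GFP is made as a separate protein from the Foxp3 transcript. Treg were splenic CD3+ CD4+ GFP+ cells, sorted a second time for purity, and the other 8 arrays held the CD3+ CD4+ GFP- conventional T cells (Tconv) of the same 4 lines. Each combination of allele and background is 1 mouse line, and the number of backcross generations is not given in the sources used here. Nor do these say whether the 2 arrays of a group came from separate mice or pools, so p-values measure the spread between arrays, which may be technical.

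Foxp3 is the transcription factor that defines Treg, and it acts in complexes with other transcription factors. A GFP moiety at its N-terminus is known to alter some of these contacts, and the fusion allele is known to modify autoimmune disease in opposite directions in different disease models. NOD mice develop spontaneous autoimmune diabetes and carry a major histocompatibility complex (MHC) haplotype different from that of B6 mice. Effector Treg are the activated fraction of the population, marked by Irf4, Prdm1, Icos, Tigit and Il10.

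The authors' deposited intensities were turned into log2 values, and 12798 genes were tested with limma, whose linear model shared its variance over all 16 arrays. A gene was called at a Benjamini-Hochberg adjusted p under 0.05. Values are log2 intensities per array, and differences are log2 differences ± SE. Median intensities per array lay between 86.7 and 99.0, and the SD of the difference between the 2 Treg arrays of a group lay between 0.185 and 0.251. The interquartile range of the log2 values averaged 2.93 on the fusion NOD arrays and 3.02 on ires NOD, against 2.93 on fusion B6 and 2.78 on ires B6. Across genes the contrast correlated with mean level (Pearson r = -0.323 over 12798 genes, which share the same 8 arrays). With the genes split by level into 3 groups of 4266, its median was -0.12 in the brightest group and 0.14 in the dimmest.

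Foxp3 itself, the modified gene, was bright on every Treg array. It reached 11.47 and 11.52 on the fusion NOD arrays, and 11.94 and 12.16 on the ires NOD arrays. In B6 it reached 11.37 and 11.59 with the fusion allele and 11.79 and 11.77 with the ires allele. The fusion arrays lay below the ires arrays in both backgrounds. The contrast was -0.26 ± 0.31 (adjusted p = 0.835), with a 95% interval between -0.91 and 0.40.

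Only 5 of 12798 genes passed the test for the contrast (0.0391%). Kcnma1 and Lad1 were higher in NOD than in B6 on this difference of differences, and Ctse, Cd55 and Desi1 were lower. For fusion minus ires within 1 background, 13 genes were called in NOD Treg (0.102%, 9 higher and 4 lower) and 44 in B6 Treg (0.344%, 37 higher and 7 lower). At an unadjusted p under 0.05 the contrast had 778 genes (6.08%), 382 higher and 396 lower. Its median SE was 0.19, and the middle 90% of contrast values lay between -0.38 and 0.39. In all, 24 genes had a contrast of at least 1 in size.

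For each called gene, 1 of the 4 lines was furthest from the other three, and which line it was differed between genes. Kcnma1 is annotated as the pore-forming subunit of the large-conductance potassium channel activated by calcium and voltage. Its brighter probe set (10582545) gave 10.45 and 9.55 on the fusion NOD arrays, against 3.93 and 4.35 on ires NOD. In B6 it gave 4.57 and 4.58 with the fusion allele, against 4.64 and 4.34 with the ires allele. Both fusion NOD arrays were far above the other 6, which overlapped. Those 6 arrays lay under 6.06, the log2 level that a gene had to pass on at least 2 arrays to be tested, so no fold over them is given. Against 6.06 itself, fusion NOD was at least 15.3-fold higher. The fitted contrast was 5.78 ± 0.34 (adjusted p = 3.07e-08), and its size depends on those dim values. The probe set passed the filter only through the fusion NOD arrays, of Treg and of Tconv, so this adjusted p adds nothing to the array values.

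The symbol attached to that probe set is open to doubt. A second Kcnma1 probe set (10418053), with a mean of 4.66, had a contrast of 0.22 ± 0.25. None of the 4 accessions assigned to probe set 10582545 is a RefSeq transcript. The 10 named probe sets nearest to it by number, among them those of Fanca and Dbndd1, belong to genes of chromosome 8, whereas Kcnma1 lies on chromosome 14. A probe set numbered close by without a symbol (10582549) had the same line apart. It gave 8.56 and 8.04 on fusion NOD and 5.39 and 5.15 on ires NOD, against 5.31 and 5.21 on fusion B6 and 5.53 and 5.16 on ires B6. Its contrast was 3.12 ± 0.37 (adjusted p = 0.00133 over every probe set of the table). The signal is therefore reported for the probe sets and not for the potassium channel, and whether it comes from the Kcnma1 transcript was not tested.

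Desi1, a protease that removes SUMO from some substrates, also set the fusion NOD line apart, in the opposite direction. It gave 7.24 and 7.36 on the fusion NOD arrays, against 8.85 and 8.39 on ires NOD. The B6 arrays lay at 8.66 and 8.93 with the fusion allele and at 8.68 and 8.68 with the ires allele. The 2 fusion NOD arrays were below all others, and the other 3 lines overlapped. Desi1 fell in the NOD fusion line by 1.32 ± 0.15 (ires over fusion 2.49-fold), against 0.12 ± 0.15 in B6 (fusion minus ires, not called). The contrast was -1.44 ± 0.21 (adjusted p = 0.00554).

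Ctse encodes cathepsin E, an intracellular aspartic protease of the endosomal system. Its values were 8.62 and 8.44 on fusion NOD and 8.69 and 8.72 on ires NOD. They were 11.49 and 11.68 on fusion B6, against 8.58 and 8.19 on ires B6. The fusion B6 line alone was high, and the other 6 arrays lay between 8.19 and 8.72. Fusion over ires was 0.888-fold in NOD and 9.16-fold in B6, for a contrast of -3.37 ± 0.23 (adjusted p = 1.60e-07).

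Cd55, or decay-accelerating factor, is the membrane protein that disassembles complement convertases on the cell's own surface. It gave 6.93 and 7.42 on fusion NOD and 7.42 and 7.56 on ires NOD, against 8.34 and 8.61 on fusion B6 and 6.55 and 6.72 on ires B6. The fusion B6 arrays were highest and the ires B6 arrays lowest, with both NOD lines in between. The fusion minus ires difference was -0.32 ± 0.18 in NOD (adjusted p = 0.998) and 1.84 ± 0.18 in B6 (adjusted p = 3.49e-05). The contrast was -2.15 ± 0.25 (adjusted p = 3.85e-04). The other complement genes tested had contrasts nearer to 0, of -0.29 ± 0.23 for Cd46, -0.13 ± 0.24 for Cr1l and 0.03 ± 0.18 for C1qbp.

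Lad1, which encodes ladinin-1, a filament-associated anchoring protein, was set apart by the ires B6 line. It gave 6.37 and 6.16 on fusion NOD and 6.42 and 6.24 on ires NOD, against 6.58 and 6.68 on fusion B6 and 7.96 and 7.82 on ires B6. The ires B6 arrays stood above the other 6. Lad1 fell by 1.26 ± 0.14 in the B6 fusion line (2.39-fold lower than ires), against a difference of -0.07 ± 0.14 in NOD. The contrast was 1.19 ± 0.19 (adjusted p = 0.0212). This is the least firm of the 5 calls, lost when any 1 of 6 Treg arrays was left out (adjusted p between 0.0668 and 0.160, the contrast between 1.09 and 1.29 over all such fits).

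Snrpe, a core Sm protein of the spliceosomal ribonucleoproteins, followed just outside the threshold. It gave 10.51 and 10.83 on fusion NOD and 10.39 and 10.76 on ires NOD, against 10.87 and 10.81 on fusion B6 and 9.33 and 9.55 on ires B6. The ires B6 arrays were the low ones and the other 3 lines overlapped. The contrast was -1.31 ± 0.24 (adjusted p = 0.0607). The other 18 tested Sm and LSm genes had contrasts of at most 0.25 in size.

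**Figure D1:**
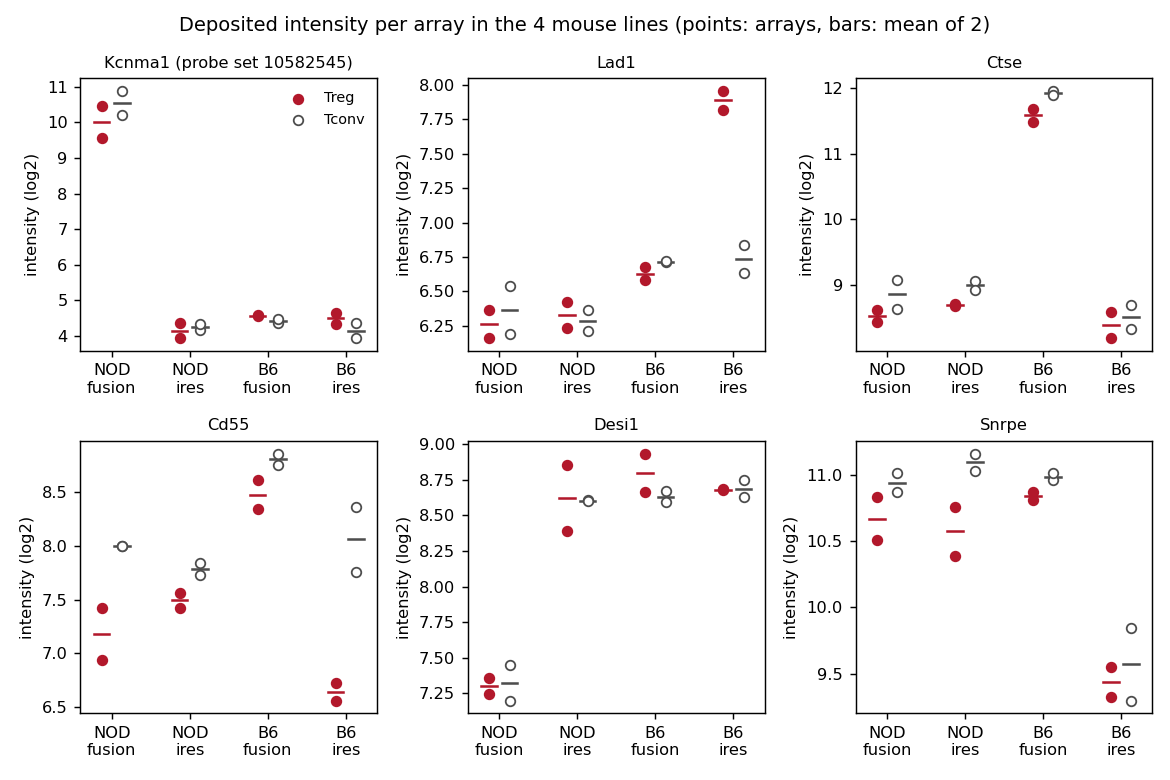
Deposited intensity (log2, vertical axis) of the 5 genes called in the contrast and of Snrpe, by mouse line (horizontal axis), with Treg arrays as filled points, Tconv arrays as open points and bars at the mean of 2 arrays. The Treg line furthest from the other three differs between panels: fusion NOD for Kcnma1 and Desi1, fusion B6 for Ctse and Cd55, ires B6 for Lad1 and Snrpe.

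The proximal promoters of the called genes show the reference sequence at the loci where 1 line differed. The windows, from RefSeq on GRCm38.p6, run from 250 bases before to 50 bases after the transcript start, 5′ to 3′ on the gene's strand. Entries existed for 4 of the 5 called genes, and Cd55, Lad1 and Desi1 are printed. Capitals mark matches on either strand to the CCAAT box (CCAAT), the GC box (GGGCGG) or the forkhead core (GTAAACA), the motif family that Foxp3 binds. Of 32851 such windows, 37.4% held CCAAT, 35.7% held GGGCGG and 3.65% held GTAAACA. The Cd55 window is chr1:130462695-130462994 (minus strand), the Lad1 window chr1:135818348-135818647 (plus strand) and the Desi1 window chr15:82016171-82016470 (minus strand).
Cd55: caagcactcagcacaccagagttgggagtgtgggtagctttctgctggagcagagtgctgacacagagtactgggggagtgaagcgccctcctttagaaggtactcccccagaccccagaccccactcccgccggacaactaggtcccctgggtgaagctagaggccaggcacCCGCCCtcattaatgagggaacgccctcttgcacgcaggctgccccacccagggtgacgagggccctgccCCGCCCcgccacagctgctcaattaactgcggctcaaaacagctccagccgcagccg
Lad1: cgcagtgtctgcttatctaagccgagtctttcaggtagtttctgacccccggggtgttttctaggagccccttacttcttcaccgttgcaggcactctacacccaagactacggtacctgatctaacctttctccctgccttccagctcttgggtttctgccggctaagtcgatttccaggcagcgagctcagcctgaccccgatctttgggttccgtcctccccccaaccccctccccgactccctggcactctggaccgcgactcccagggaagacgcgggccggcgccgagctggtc
Desi1: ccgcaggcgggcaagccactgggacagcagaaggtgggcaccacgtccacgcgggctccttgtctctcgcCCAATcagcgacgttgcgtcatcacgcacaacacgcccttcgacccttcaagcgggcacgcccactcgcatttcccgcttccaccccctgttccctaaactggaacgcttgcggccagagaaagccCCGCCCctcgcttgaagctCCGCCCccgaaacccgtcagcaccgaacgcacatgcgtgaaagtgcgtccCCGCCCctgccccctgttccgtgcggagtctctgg
Cd55 held 2 GC boxes, Desi1 held 3 GC boxes and 1 CCAAT box, and Lad1 held no match to any of the 3 motifs. The letters GTAAACA were in none of the 3 windows. The reference is of B6 origin, and the NOD sequence was not examined.

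The Tconv arrays of the same 4 lines measured the same difference of differences on separate arrays. The sources used here do not say whether Treg and Tconv came from the same mice, so the cell types may not be independent. Same-numbered Treg and Tconv arrays of a line deviated together at r = 0.398 in fusion B6 and 0.396 in ires B6. In fusion NOD r was 0.239, and in ires NOD 0.0803. Over all 28 pairs of groups r ran from -0.371 to 0.465, the highest being fusion NOD Treg with ires B6 Tconv. These values therefore do not set pairs of the same line apart from the others. In Tconv too 5 genes were called (0.0391%), and Ctse, Desi1 and Kcnma1 were among them. Ctse had a Tconv contrast of -3.55 ± 0.23 (adjusted p = 6.78e-08), Desi1 of -1.22 ± 0.21 (adjusted p = 0.0344) and the Kcnma1 probe set of 6.03 ± 0.34 (adjusted p = 1.49e-08). In each case the line that stood apart in Treg also stood apart in Tconv. The Kcnma1 probe set was tested only because fusion NOD was high, so its adjusted p in Tconv is not separate support. Snrpe was called in Tconv, at -1.57 ± 0.24 (adjusted p = 0.0145), with ires B6 again the low line.

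Cd55 and Lad1 were not called in Tconv. Cd55 gave 8.0 and 8.0 on fusion NOD Tconv and 7.84 and 7.73 on ires NOD Tconv, against 8.75 and 8.86 on fusion B6 Tconv and 7.76 and 8.36 on ires B6 Tconv. Fusion B6 was again the highest line, with a contrast of -0.53 ± 0.25 (adjusted p = 1). Lad1 in Tconv lay between 6.19 and 6.84 on all 8 arrays, also near the filter level, with a contrast of 0.10 ± 0.19. The test of the difference between cell types gave -1.63 ± 0.35 for Cd55 (adjusted p = 0.967) and 1.09 ± 0.27 for Lad1 (adjusted p = 1.00). No gene passed that test by limma (0%), and 386 genes had an unadjusted p under 0.05 (3.02%). The remaining gene called in Tconv, Pxylp1, which encodes a xylose phosphatase of glycosaminoglycan synthesis, had a contrast of 0.17 ± 0.19 in Treg and 1.18 ± 0.19 in Tconv (adjusted p = 0.0176).

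Below the threshold, 23 genes had an unadjusted p under 0.001 in Treg, 10 higher and 13 lower in NOD, the called genes and Snrpe included. Of these 20 had the same sign in Tconv, 14 with an unadjusted p under 0.05 there, where 1.86% of all tested genes reached that p. Over all tested genes the Treg and Tconv contrasts had the same sign for 52.5%, and correlated at Pearson r = 0.159 (0.0819 without the called genes). The line set apart was the same in Treg and Tconv for 15 of the 23 genes. In Treg it was fusion NOD for 4 genes, ires NOD for 5, fusion B6 for 6 and ires B6 for 8. Any gene has a line furthest from the others, and the shares over all tested genes are not given. These counts are therefore not a trait of the 23 genes.

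Among those that did not pass, Gnb4, a G protein beta subunit, had a contrast of -1.05 ± 0.19 (adjusted p = 0.0607). It gave 8.08 and 8.32 on fusion NOD and 8.30 and 8.57 on ires NOD, against 7.92 and 7.96 on fusion B6 and 7.13 and 7.12 on ires B6. Rab4a, a GTPase of endosomal recycling, gave 7.80 and 7.94 on fusion NOD and 7.92 and 8.15 on ires NOD, against 7.74 and 7.79 on fusion B6 and 7.07 and 6.54 on ires B6. In both genes ires B6 was the low line. Tent5a, a noncanonical poly(A) polymerase, had the same line low, with a contrast of -0.94 ± 0.21, and a second probe set of it had -0.78 ± 0.23.

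Ccr9, the chemokine receptor that directs T cells to the small intestine, gave 7.58 and 7.79 on fusion NOD and 7.54 and 7.92 on ires NOD. In B6 it gave 8.17 and 8.45 with the fusion allele, against 7.31 and 7.16 with the ires allele. The fusion B6 arrays were above and the ires B6 arrays below all 4 NOD arrays, and the contrast was -1.11 ± 0.23 (adjusted p = 0.131). Its Tconv contrast was -0.70, of the same sign but with another line apart. There fusion minus ires was -0.48 in NOD and 0.22 in B6, and ires NOD was the line apart.

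Suclg2, a subunit of the mitochondrial succinyl-CoA ligase, resembled Desi1. It gave 7.60 and 7.76 on fusion NOD, against 9.04 and 8.58 on ires NOD, 8.78 and 9.03 on fusion B6 and 8.87 and 8.95 on ires B6. Its contrast was -1.12 ± 0.24 (adjusted p = 0.182), with -1.16 ± 0.25 for its second probe set. Suclg2 fell in fusion NOD against ires NOD by 1.13 ± 0.17 (adjusted p = 0.00493). In Vat1, a vesicle membrane protein, ires NOD was the line apart, at 7.44 and 7.45 against 6.50 to 6.81 on the other 6 Treg arrays. The Vat1 contrast was -0.83 ± 0.16 (adjusted p = 0.0945) and its Tconv contrast was -0.74.

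**Figure D2:**
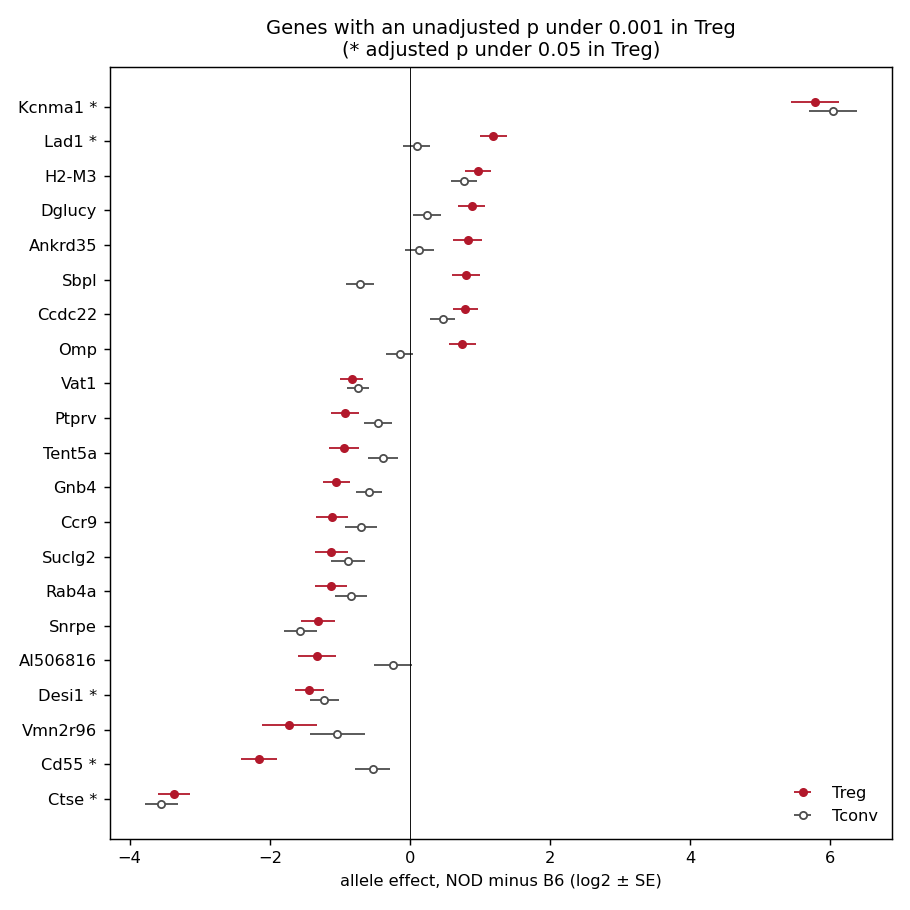
Contrast (log2 ± SE, horizontal axis) in Treg (filled) and Tconv (open) for 21 of the 23 genes with an unadjusted p under 0.001 in Treg, the 2 left out being a small nucleolar RNA and a Riken clone. Kcnma1, Ctse, Desi1 and Snrpe have similar values in both cell types, while the Tconv values of Lad1 and Cd55 lie nearer to 0.

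The 2 single-background differences share their arrays with the contrast, so their values are set side by side and the overlap is not a result. Of the 13 genes called in NOD, 12 had the same sign in B6, and the 95% interval of the contrast included 0 for 2. For the 44 called in B6, 36 had the same sign in NOD, and 15 intervals included 0. The same-sign share of all tested genes is not given, so these sign counts have no comparison. The 2 genes called in both were Rapgef5 and Gm7265. Gm7265 passed the filter for tested genes only through fusion Treg arrays (6.11 on fusion NOD replicate 1, 6.26 and 6.34 on fusion B6). Its calls follow in part from that and carry no weight. Rapgef5, an exchange factor for Rap GTPases, gave 7.88 and 7.68 on fusion NOD, against 7.11 and 6.97 on ires NOD. In B6 it gave 6.80 and 6.78 with the fusion allele, against 6.07 and 6.03 with the ires allele. Fusion arrays were above ires arrays in both strains by the same amount (0.74 ± 0.13 in each), and the contrast was -0.00 ± 0.19, with a 95% interval between -0.40 and 0.39.

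Several effector genes called in B6 had smaller differences in NOD without a called contrast. Picking genes by a call in 1 background makes a smaller difference in the other likely, so this is not a result about NOD. Genes called in B6 had a median difference of 0.82 in B6 and 0.22 in NOD. Those called in NOD had 0.80 in NOD and 0.18 in B6. Prdm1, which encodes the effector regulator Blimp-1, gave 8.58 and 8.45 on fusion NOD and 7.80 and 7.59 on ires NOD, against 8.83 and 8.86 on fusion B6 and 7.89 and 7.41 on ires B6. Fusion arrays lay above ires arrays in both backgrounds, and the contrast was -0.38 ± 0.24 (adjusted p = 0.763). Tigit, an inhibitory receptor of effector Treg, had 0.64 ± 0.16 in NOD and 1.08 ± 0.16 in B6, and a contrast of -0.43 ± 0.22 (adjusted p = 0.763). Icos, a costimulatory receptor, had 0.66 ± 0.16 in NOD and 0.80 ± 0.16 in B6, and a contrast of -0.14 ± 0.22 (adjusted p = 0.87).

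Il10, the suppressive cytokine, gave 5.46 and 5.76 on fusion NOD and 4.98 and 4.87 on ires NOD, against 7.12 and 6.62 on fusion B6 and 5.62 and 5.15 on ires B6. Only the fusion B6 arrays were above the level of 6.06 used as the filter for tested genes. Its fitted contrast was -0.80 ± 0.34 (adjusted p = 0.763), a size that rests on 6 dim arrays. Nedd4, a ubiquitin ligase, gave 7.38 and 7.47 on fusion NOD and 6.67 and 6.89 on ires NOD, against 8.29 and 7.90 on fusion B6 and 6.80 and 6.65 on ires B6. Atp6v0d2, which belongs to the vacuolar proton pump, gave 6.73 and 6.77 on fusion NOD and 6.04 and 6.16 on ires NOD, against 8.08 and 8.45 on fusion B6 and 6.67 and 6.98 on ires B6. In both, fusion was above ires in each background and fusion B6 was the highest line, with contrasts of -0.72 ± 0.22 and -0.78 ± 0.28 (adjusted p = 0.763 in each case).

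Ccdc22, a component of an endosomal sorting complex, had the smallest adjusted p after Kcnma1 in NOD alone. It gave 8.71 and 8.83 on fusion NOD, against 7.51 and 7.50 on ires NOD. In B6 it gave 8.29 and 8.55 with the fusion allele, against 7.88 and 8.02 with the ires allele. Fusion lay above ires in both strains, by 1.26 ± 0.13 in NOD (adjusted p = 6.10e-05) and 0.47 ± 0.13 in B6 (adjusted p = 0.183). The contrast was 0.79 ± 0.18 (adjusted p = 0.241). Ccdc22 and Foxp3, the modified gene, both lie on the X chromosome, and a local effect of the modified locus was not tested.

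**Figure D3:**
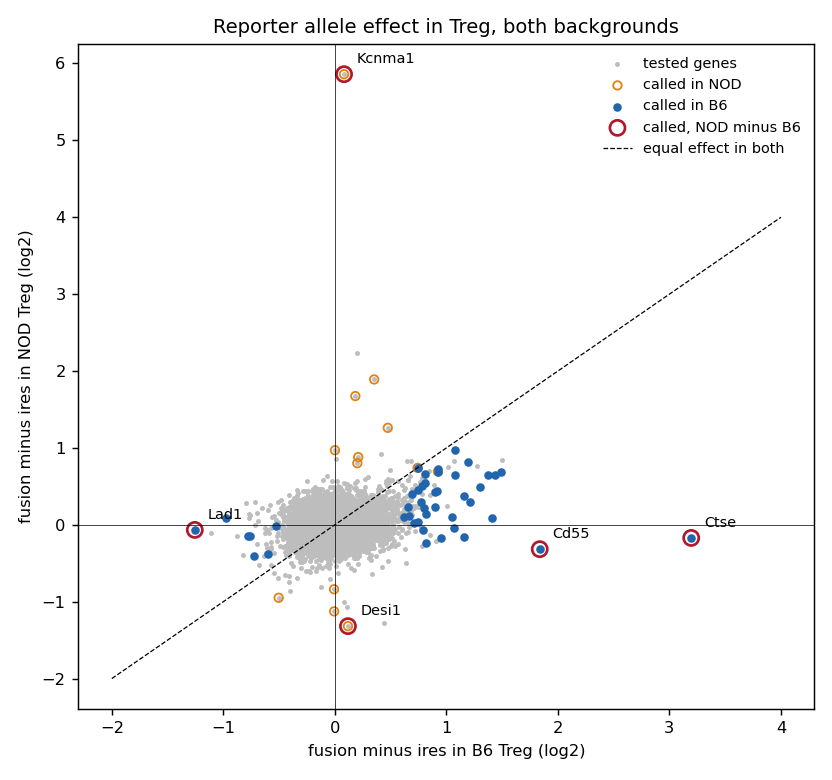
Fusion minus ires in NOD Treg (log2, vertical axis) against the same in B6 Treg (log2, horizontal axis) for 12798 genes, with genes called in B6, in NOD and in the contrast marked. Kcnma1 and Desi1 lie near 0 in B6, Ctse, Cd55 and Lad1 lie near 0 in NOD, and most genes called in B6 alone lie between the horizontal axis and the dashed line of equal effect. Picking genes by their B6 difference favours that position.

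The position of the called genes was examined because 3 of the 5 lie on chromosome 1. In the order of the RefSeq annotation, Cd55, Ctse and Lad1 fall within a run of 64 tested genes that Cd55 and Lad1 bound. This stretch was chosen after its values were seen and has no test. It held 3 called contrasts and 8 at an unadjusted p under 0.05 (12.5%, against 8.28% in the 676 other tested genes of chromosome 1 and 6.08% overall). In B6 alone the stretch held 6 of the 44 called genes, and 1 was called on the rest of the chromosome. At an unadjusted p under 0.05 the share was 1.56% of the stretch in NOD (against 4.81% overall) and 29.7% in B6 (against 9.15% overall).

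The 6 genes called in B6 did not share a direction. Among them Il10 passed the filter for tested genes only through its fusion B6 arrays, so its call follows in part from that. Cd55, Il10, Ctse, Snrpe and Ptprv, a receptor-type tyrosine phosphatase, were higher in fusion B6 than in ires B6, and Lad1 was lower. Nor did they share the line set apart, which was fusion B6 for Cd55, Il10 and Ctse, and ires B6 for Snrpe, Ptprv and Lad1. Ptprv gave 8.07 and 7.91 on fusion NOD and 7.76 and 7.63 on ires NOD, against 8.37 and 8.35 on fusion B6 and 7.24 and 7.05 on ires B6. Its contrast was -0.92 ± 0.20 (adjusted p = 0.182). Among the 10 tested genes nearest to each called gene, contrasts ran between -0.40 and 0.23 around Ctse, -0.80 and 0.37 around Cd55, -0.16 and 0.63 around Lad1, -0.27 and 0.30 around Desi1 and -0.18 and 0.50 around Kcnma1. The Kcnma1 neighbours are those of the annotated gene on chromosome 14, and the called probe set may not measure that locus. An unadjusted p under 0.05 was reached by 2 neighbours of Lad1, 1 of Cd55, 1 of Kcnma1 and 0 of Ctse and Desi1. Whether these lines differ in the DNA of this stretch was not tested, and line and allele cannot be told apart with 1 line per combination.

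**Figure D4:**
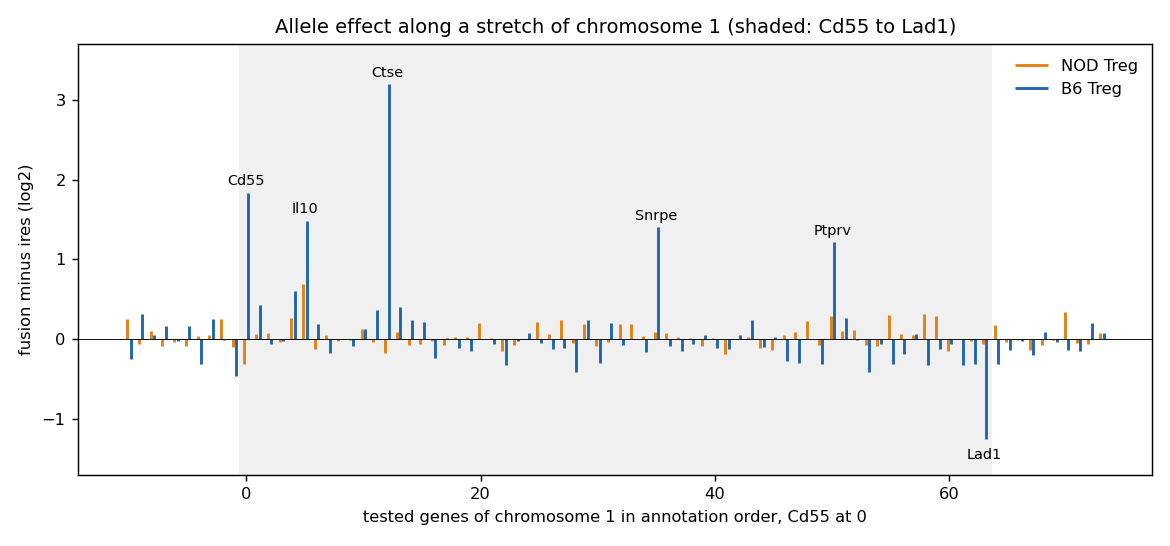
Fusion minus ires (log2, vertical axis) in NOD Treg and B6 Treg for tested genes of chromosome 1 in annotation order (horizontal axis, a rank and not a distance), with the 64 genes between Cd55 and Lad1 shaded. The tall B6 bars are the 6 genes called in B6, while no gene of the stretch was called in NOD.

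Class I antigen presentation was the gene list with the highest median contrast among the 7 T cell programmes drawn in the plot of list members. These genes encode the MHC class I molecules and the proteasome subunits, transporters and chaperones that load them. Of 22 tested members 16 had a positive contrast, with a median of 0.36 (0.22 without ires B6 replicate 2, 0.24 without ires NOD replicate 1, up to 0.38 without another array), whereas 5481 of all 12798 genes were positive, with a median of -0.04. None was called, and 9 had an unadjusted p under 0.05 in the positive direction (2.98% of all genes did). Tconv gave a median of 0.27 for the list, also with 16 of 22 positive. In both cell types ires NOD replicate 1 was below replicate 2 for H2-T10 and H2-Q5 (in Tconv 7.77 against 8.93, and 6.83 against 7.76). In 16 of the 22 genes ires NOD was the lowest of the 4 Treg lines, as in 27.6% of all tested genes.

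Psmb9, an inducible subunit of the immunoproteasome, and Tap1, one chain of the peptide transporter, illustrate this pattern. Psmb9 gave 10.15 and 10.09 on fusion NOD, against 9.21 and 9.42 on ires NOD. In B6 it gave 10.57 and 10.51 with the fusion allele, against 10.20 and 10.48 with the ires allele. The ires NOD arrays were the lowest, and the contrast was 0.60 ± 0.18 (adjusted p = 0.763). Tap1 had 0.67 ± 0.18 (adjusted p = 0.744), and its neighbour Tap2 had 0.37 ± 0.17 (adjusted p = 0.763).

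Psmb9 and Tap1 lie head to head on chromosome 17 and their RefSeq promoter windows overlap by 275 bases. The Tap1 window (GRCm38.p6, chr17:34187306-34187605, plus strand) is printed because both genes had ires NOD as the low line. Capitals mark the same 3 motifs as above.
Tap1: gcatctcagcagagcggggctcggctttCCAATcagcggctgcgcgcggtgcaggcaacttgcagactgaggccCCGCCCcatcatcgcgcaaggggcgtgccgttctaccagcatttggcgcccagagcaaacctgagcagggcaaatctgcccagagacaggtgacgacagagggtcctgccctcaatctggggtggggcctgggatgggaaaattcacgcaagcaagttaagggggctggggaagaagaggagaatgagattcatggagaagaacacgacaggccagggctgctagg
It held 1 CCAAT box and 1 GC box and no GTAAACA.

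The class I heavy chain genes had the highest contrasts but the least agreement between arrays. H2-Q4 gave 11.44 and 11.24 on fusion NOD, against 8.16 and 10.04 on ires NOD. In B6 it gave 11.35 and 11.54 with the fusion allele, against 11.29 and 11.21 with the ires allele. The ires NOD arrays were both low, and replicate 1 was far lower than replicate 2. The contrasts were 2.05 ± 0.61 for H2-Q4, 1.54 ± 0.48 for H2-T10 and 1.49 ± 0.42 for H2-Q5 (unadjusted p between 0.00219 and 0.00534, not called). These values rested on which ires NOD array was used. Without replicate 1 the contrasts were 1.10, 0.80 and 0.90 for H2-Q4, H2-T10 and H2-Q5 (adjusted p = 0.681 each), and without replicate 2 they were 2.99, 2.28 and 2.08, with all 3 called. H2-Q5 and H2-T10 were also called for fusion minus ires in NOD alone, and without ires NOD replicate 1 neither was (adjusted p = 0.545 each). H2-M3, which presents formylated peptides, had closer replicates, at 8.71 and 8.51 on fusion NOD, against 7.60 and 7.68 on ires NOD, 8.46 and 8.23 on fusion B6 and 8.21 and 8.48 on ires B6. Its contrast was 0.97 ± 0.18 (adjusted p = 0.0885), and 0.78 ± 0.18 in Tconv. These genes have near-identical paralogs and differ in sequence between the strains, so their probe sets may not separate them.

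The contrast of interferon response genes depended on single arrays. The 29 tested members had a median contrast of 0.03, with 15 positive and none called or at an unadjusted p under 0.05. Fusion was above ires for 28 of them in NOD (46.2% of all genes) and 29 in B6 (52.5%). The fusion B6 arrays disagreed, with summed intensities of 12500 and 19500, and the median contrast was -0.35 without fusion B6 replicate 2 and 0.35 without replicate 1.

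Effector Treg and IRF4-linked genes had negative contrasts almost throughout. Of 24 tested members 23 were negative (7317 of 12798 over all genes), with a median of -0.28, or between -0.39 and -0.15 with an array left out. None was called, and 5 had an unadjusted p under 0.05 in the negative direction (3.09% of all genes did). The median fusion minus ires difference was 0.36 in NOD and 0.67 in B6, and 17 members in NOD and 21 in B6 were higher with the fusion allele, against 46.2% of all tested genes in NOD and 52.5% in B6. Fusion B6 was the highest of the 4 lines for 20 of the 24 members and for 22.6% of all tested genes. In Tconv the list's median contrast was -0.05. Neither this list nor those below were matched for level, and the brightest of the 3 level groups of all genes had a median contrast of -0.12. In bulk RNA of a sorted population, fewer effector cells and less RNA per cell cannot be told apart.

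Surface receptors were among the effector members with the lowest contrasts. Klrg1, a receptor of terminally differentiated cells, gave 8.75 and 8.55 on fusion NOD and 8.86 and 8.87 on ires NOD, against 10.46 and 10.10 on fusion B6 and 10.09 and 8.65 on ires B6. The ires B6 arrays lay far apart, and the contrast was -1.12 ± 0.44 (adjusted p = 0.763). Ccr8, a chemokine receptor of tissue and activated Treg, gave 8.44 and 8.37 on fusion NOD and 8.27 and 8.28 on ires NOD, against 9.46 and 9.57 on fusion B6 and 8.80 and 8.60 on ires B6. Its 4 NOD arrays lay together and below the B6 arrays, and the contrast was -0.68 ± 0.24 (adjusted p = 0.763). S100a4, a calcium-binding protein of memory-like T cells, had -0.60 ± 0.23 (adjusted p = 0.763). Irf4 itself had -0.29 ± 0.26 (adjusted p = 0.800).

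Cell cycle genes and lysosomal genes shared the negative sign, as did 7317 of all 12798 genes. Over all genes 3.09% were negative at an unadjusted p under 0.05. Of 36 cell cycle genes 30 were negative, with a median of -0.21 (-0.34 without fusion B6 replicate 1, -0.10 without replicate 2) and 2 at an unadjusted p under 0.05, Kif11 (-0.66 ± 0.26) and Kif20a (-0.56 ± 0.22), both mitotic kinesins. Fusion was above ires for 27 of the 36 in NOD and for all 36 in B6, and fusion B6 was the highest line for 35, beside the same shares of all genes (46.2%, 52.5% and 22.6%). Of 30 lysosomal proteases and proton pump subunits 25 were negative, with a median of -0.19 (-0.27 without fusion B6 replicate 1, -0.10 without replicate 2), and Ctse was called. Besides it, 5 had an unadjusted p under 0.05, among them Lgmn, the protease legumain (-0.70 ± 0.22), and the pump subunits Atp6v0d2 and Atp6v1a (-0.45 ± 0.16).

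Genes of naive and central T cells tended to the other sign. Of 16 tested members 10 were positive (5481 of 12798 over all genes), with a median of 0.10, or between -0.08 and 0.27 with an array left out. Igfbp4 had 0.91 ± 0.25 (adjusted p = 0.744), Id3, an inhibitor of E proteins, 0.62 ± 0.20 (adjusted p = 0.763) and Dapl1 0.49 ± 0.22 (adjusted p = 0.763). In all 3 the fusion minus ires difference was more negative in B6 than in NOD. For Id3 the values were 7.74 and 8.15 on fusion NOD and 8.09 and 8.07 on ires NOD, against 7.82 and 8.02 on fusion B6 and 8.65 and 8.70 on ires B6. The ires B6 arrays were above all the others.

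Genes that mark Treg as such had no called contrast. Of 30 tested Treg-high genes 22 were negative (7317 of 12798 over all genes), and none was called. Their median was -0.15, beside -0.12 for the brightest level group of all genes. Il2ra had 0.19 ± 0.43, Ctla4 -0.16 ± 0.33, Ikzf2 -0.04 ± 0.26 and Entpd1 -0.17 ± 0.37. Each of these SEs was above the median SE of all genes. The HIF-1, hypoxia and glycolysis genes had a median of -0.09 over 29 tested members with no unadjusted p under 0.05, and Hif1a had -0.30 ± 0.21 (adjusted p = 0.776).

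**Figure D5:**
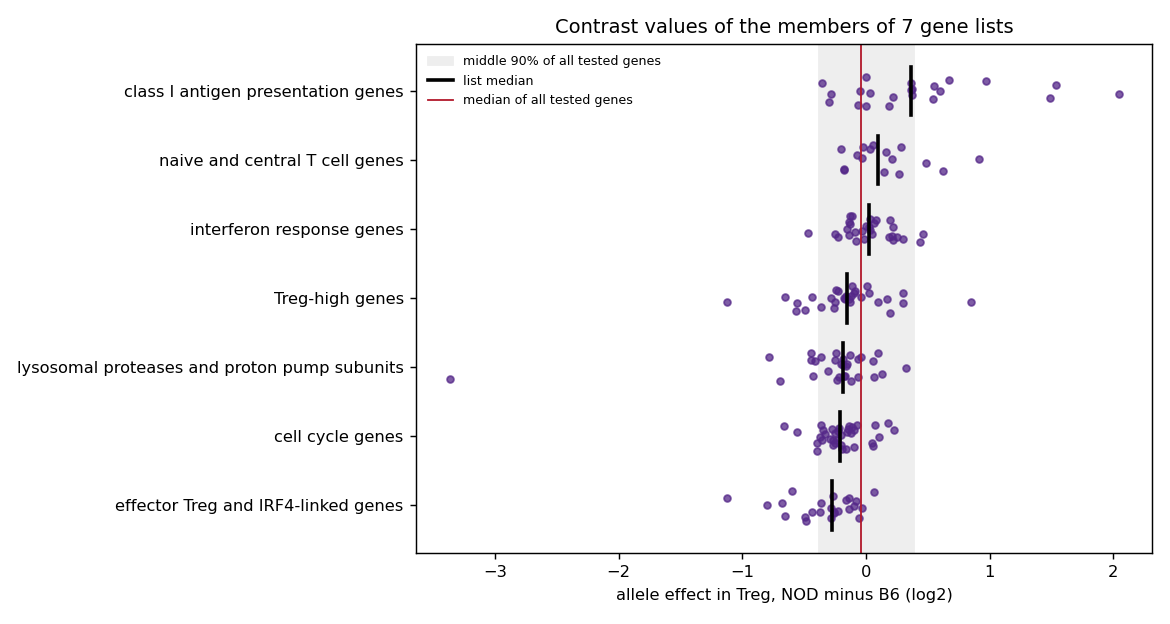
Contrast (log2, horizontal axis) of every tested member of 7 gene lists (points, spread vertically for legibility), with list medians as black bars, the median of all 12798 genes as a red line and the middle 90% of all genes shaded. Class I genes reach furthest to the right, effector, cell cycle and lysosomal genes lie mostly left of the red line, and the far left point is Ctse.

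Markers of other cell types were followed on the same arrays. No marker was called in the contrast. Summed intensities of the 16 measured dendritic cell and MHC class II markers lay between 1520 and 1630 on fusion NOD and between 1440 and 1600 on ires NOD, against 2310 to 2450 on fusion B6 and 2180 to 2340 on ires B6. The 15 markers of NK, gamma-delta and CD8 T cells summed to 1460 to 1550 on fusion NOD and 1410 to 1500 on ires NOD, against 2020 to 2200 on fusion B6 and 1680 to 1720 on ires B6. The 17 B cell and plasma cell markers summed to 1570 to 1650 on fusion NOD and 1540 to 1740 on ires NOD, against 1750 to 1790 on fusion B6 and 1950 to 1980 on ires B6. For the 19 myeloid markers the sums were 1050 to 1160 on fusion NOD and 1020 to 1050 on ires NOD, against 1230 to 1290 on fusion B6 and 1290 to 1300 on ires B6. The 8 red cell and platelet markers summed to 423 to 501 on fusion NOD and 422 to 448 on ires NOD, against 389 to 441 on fusion B6 and 428 to 453 on ires B6.

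The dendritic, myeloid, B cell and CD8, NK and gamma-delta sums were higher on every B6 array than on every NOD array, and the red cell sums overlapped. Sums of linear intensity weigh bright members most, so they do not speak for each member. In the B cell list Cd72 averaged 5.74 on fusion NOD and 6.14 on ires NOD, against 7.87 on fusion B6 and 8.21 on ires B6. Cd79a and Ms4a1 of that list were not higher in B6. Cd79a averaged 5.35 on fusion NOD and 5.12 on ires NOD, against 4.70 on fusion B6 and 5.03 on ires B6. Between alleles in B6, the CD8, NK and gamma-delta sum was higher on fusion than on ires, and the B cell sum was lower. In the CD8, NK and gamma-delta list Ccl5, a chemokine also made by activated T cells, averaged 8.58 on fusion NOD and 7.80 on ires NOD, against 9.70 on fusion B6 and 8.43 on ires B6. The higher sum of this list on fusion B6 came from Ccl5. Only 3 of its 10 tested members were higher on fusion B6 than on ires B6 (52.5% of all tested genes were). On all 8 Treg arrays, 10 of 17 B cell markers, 9 of 19 myeloid, 5 of 16 dendritic and class II, 7 of 15 CD8, NK and gamma-delta and 4 of 8 red cell markers lay under the filter level. Above it on all 8 arrays were 2, 3, 7, 6 and 2 of these lists in the same order. Among them was Cd74, the class II invariant chain. It averaged 6.83 on fusion NOD and 6.86 on ires NOD, against 8.15 on fusion B6 and 7.57 on ires B6. Cd79b averaged 7.13 on fusion NOD and 7.33 on ires NOD, against 7.51 on fusion B6 and 7.70 on ires B6. Xbp1, the other of the 2 B cell markers, was not higher in B6. It averaged 9.72 on fusion NOD and 9.71 on ires NOD, against 9.605 on fusion B6 and 9.69 on ires B6. The markers' part in the contrasts was not tested.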

How the data were processed

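RNA of the 16 samples was hybridized to Affymetrix arrays. The authors' summary used Affymetrix Power Tools and RMA, per the submitters' processing notes. The authors deposited linear intensities, and log2 was taken here without a pseudocount. Tool versions and the genome build were not given in the sources used here. Of 25108 probe sets 21157 had 1 gene symbol in the platform table, for 19531 genes, and the brightest probe set on average stood for its gene. Genes above the 40th percentile (6.06) on at least 2 arrays were tested. limma 3.58.1 (R 4.3.3) was fitted to 16 arrays with 1 mean per group (8 residual and 9.80 prior degrees of freedom), two-sided, and tested on simulated data. RefSeq (GRCm38.p6) gave names, gene order and promoter windows, and matched 12792 tested genes. Plots used Python 3.11.15 and matplotlib 3.10.9.

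The comparison, the 22 gene lists and the naming rule were chosen with earlier results of these data known. The rule names called genes, the 10 highest and 10 lowest others with an unadjusted p under 0.001, the highest and lowest called in 1 background, up to 3 genes per list by moderated t, 17 genes always, and neighbours of called genes. H2-Q4, Tap2, Gm7265 and Ccl5 were named after their values were seen. Alternatives were filters, scalings, variance models, array weights, probe set rules, the fit of only the arrays compared, replicate blocks and leaving out each array.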

Additional observations from a re-analysis of the deposited data

Results flagged for a closer look

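Of the Treg genes, 5 stand here because the test of the difference between backgrounds passed: the fusion minus ires effect in NOD minus that in B6 was -2.15 for Cd55, -3.37 for Ctse, -1.44 for Desi1, 5.78 for Kcnma1 and 1.19 for Lad1. In Tconv the same test passed for Ctse (-3.55), Desi1 (-1.22), Kcnma1 (6.03), Pxylp1 (1.18) and Snrpe (-1.57). One probe set that carries no gene symbol, 10582549, had a signal outside the gene-level measurement, with a Treg contrast of 3.12. Groups of 2 arrays are too small for a check of single outlying arrays.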

How the results depend on the processing

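The contrast in Treg gave 9 genes with the filter at the 60th percentile (3 higher, 6 lower), 8 after quantile normalization (3 and 5), 9 with trend and robust variances (3 and 6), 8 with only the Treg arrays (2 and 6), and 3 to 8 with an array left out (3 without fusion B6 replicate 2, 8 without fusion NOD replicate 2). All 5 called genes stayed called in every alternative that left out no array, apart from the fit of every probe set with no filter, chosen after seeing the data, which gave 5 and lost Lad1. Kcnma1, Ctse and Cd55 stayed called throughout (adjusted p up to 1.26e-05, 6.33e-05 and 0.0178), with the Kcnma1 contrast at 3.0 when its probe sets were averaged. Desi1 was lost without fusion B6 replicate 2 (-1.30, adjusted p = 0.109). In NOD alone 3 to 15 were called with an array left out (4 and 8 without fusion NOD replicates 1 and 2, 3 without ires NOD replicate 1). In B6 alone 20 genes were called with array weights, 75 with only its own arrays and 11 to 49 with an array left out (13 and 14 without fusion B6 replicates 1 and 2, 11 without ires B6 replicate 2). The Tconv contrast gave 2 genes with only the Tconv arrays and 2 to 5 with an array left out. The cause of these changes was not tested. The difference between cell types had 0 calls throughout. Same-numbered arrays did not deviate together in all Treg pairs of groups (r between -0.0117 and 0.336), and with a replicate block the counts were 7 for the Treg contrast, 17 in NOD, 57 in B6, 4 in Tconv and 0 between cell types. Of 1530 gene values under alternatives 1353 kept their call, 148 lost it, 29 gained it and none changed sign, and of 553 list medians 530 stayed within 1 SD. The red cell list gave no value at the 60th percentile filter. The 2 arrays per group limit the precision of every value.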

Other observations

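The lists not described above are set beside the median contrast of all tested genes, -0.04. That median was -0.12 in the brightest level group of all genes and 0.14 in the dimmest, and the lists were not matched for level. Of 22 tested IL-2 and STAT5 target genes 12 were negative (median -0.03), of 27 immediate-early genes 19 (median -0.08) and of 17 TGF-beta response genes 13 (median -0.16), and none of these genes was called. Pmepa1, a TGF-beta target, had -0.29 ± 0.20, the receptor Tgfbr1 -0.44 ± 0.23, and Nr4a1, which reports antigen receptor signalling, -0.43 ± 0.21. Of 20 tested genes of diabetes susceptibility regions 13 were negative (median -0.13), and Cd55 was the member called. Of 15 helper cytokine and lineage regulator genes 10 were negative (median -0.06), with Il17a at 0.46 ± 0.20 and a level near the filter on every Treg array. The medians of the IL-2 list and the helper list changed sign after quantile normalization (0.05 and 0.04). With an array left out, the highest medians were 0.11 for the IL-2 list, 0.10 for the helper list and 0.03 for the immediate-early list, each without fusion B6 replicate 2.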
